A study of Rattus norvegicus with 115 samples.

Results

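The checkpoint genes described here are the ligands Cd274 (PD-L1) and Pdcd1lg2 (PD-L2) and the receptors Pdcd1 (PD-1), Lag3, Havcr2 (TIM-3), Tigit and Cd244 (2B4), 7 genes chosen by name among 17455 symbols of a count table of sorted rat mammary tumours. Of the 7, 6 have a row in the table, and Tigit was not analysed here. PD-1 is a receptor of activated T cells that dampens signalling from the T cell receptor when it binds PD-L1 or PD-L2. PD-L1 can be made by tumour cells as well as by myeloid cells and other leukocytes, and its transcription responds to interferon-gamma, whereas PD-L2 is mostly made by dendritic cells and macrophages. LAG-3 and TIM-3 are inhibitory receptors of T cells that accumulate with prolonged stimulation, TIM-3 is also made by myeloid cells, and 2B4, a receptor for CD48, is best known from natural killer cells.

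The tumours grew in virgin Sprague Dawley rats given the mammary carcinogen N-nitroso-N-methylurea (NMU) injected 1 to 3 times at 50 mg/kg between 35 and 53 days of age. Once tumours could be felt, rats received a monoclonal antibody against PD-L1 (PDL1), LY2157299 (LY, galunisertib, an inhibitor of the TGF-beta type I receptor), both agents (PDL1+LY) or vehicle, and further tumours came from NMU rats left untreated. All these rats carried NMU tumours, and the doses of the 2 agents were not used here. The labels name 3 sorted fractions, CD45, Ep and DN, but column names give the rat and the tumour without the fraction, so columns were classed by their own counts.

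A column was called leukocyte where Ptprc, the gene of the pan-leukocyte protein CD45, reached 300 CPM (counts scaled by column total), and epithelial where Ptprc stayed below 150 CPM and Epcam, an epithelial adhesion protein, reached 300 CPM. This gave 44 leukocyte columns of 31 rats and 61 epithelial columns of 32 rats, with 2 columns in neither class. The epithelial class can therefore hold both Ep and DN samples. The lowest Ptprc among leukocyte columns was 486 CPM and the highest among epithelial columns 124 CPM, while a column of an untreated tumour at 165 CPM fell between. Leukocyte columns held 6609198 to 29727437 counts and epithelial columns 2353564 to 26635144, so 3 counts corresponded to at most 0.454 CPM and 1.27 CPM. The T cell gene Cd3e was at 21.7 to 1438 CPM in leukocyte columns and 0 to 39.5 CPM in epithelial columns, whereas the keratin gene Krt8 had a median of 24.4 CPM in leukocyte columns and 3103 CPM in epithelial columns. Cd3e was lowest in 2 leukocyte columns of vehicle rats, tumour P5T3 at 21.7 CPM and tumour P6T2 at 25.8 CPM, where 7 macrophage genes summed to 7198 and 7835 CPM. In bulk RNA, fewer cells of a type and less RNA per cell cannot be told apart.

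Among the ligands, Cd274 was measured in both classes of cells. It had counts in all 44 leukocyte columns, with a lowest value of 5.57 CPM, a median of 46.4 CPM and a highest of 253 CPM, and in all 61 epithelial columns, at 0.425, 11.5 and 63.5 CPM. Pdcd1lg2 was at 0.997, 8.56 and 34.9 CPM in leukocyte columns and at 0, 0.0482 and 4.04 CPM in epithelial columns, 30 of which held no count of it. Both genes lie side by side on rat chromosome 1, and their levels were the most alike of any 2 of the 6 genes over the 19 leukocyte columns of batch 3 (17 rats), with a Spearman rho of 0.649. These columns share a batch and differ in depth and cell makeup, so the value is a description.

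The start regions of this gene pair are shown because their levels were alike. They are RefSeq sequences of the rat assembly GRCr8, plus strand, at chr1:236529982-236530281 for Cd274 and chr1:236572247-236572546 for Pdcd1lg2. Each runs from 250 bases before the annotated start to 50 bases after it, and capitals mark matches to the RUNX motif TGTGGT or to the GC box motif GGGCGG, searched on both strands.
Cd274: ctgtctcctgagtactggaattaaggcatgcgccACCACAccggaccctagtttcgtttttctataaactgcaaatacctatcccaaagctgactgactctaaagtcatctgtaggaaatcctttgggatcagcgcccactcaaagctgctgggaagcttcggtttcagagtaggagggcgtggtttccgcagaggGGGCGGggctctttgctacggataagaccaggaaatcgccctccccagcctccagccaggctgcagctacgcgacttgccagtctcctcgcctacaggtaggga
Pdcd1lg2: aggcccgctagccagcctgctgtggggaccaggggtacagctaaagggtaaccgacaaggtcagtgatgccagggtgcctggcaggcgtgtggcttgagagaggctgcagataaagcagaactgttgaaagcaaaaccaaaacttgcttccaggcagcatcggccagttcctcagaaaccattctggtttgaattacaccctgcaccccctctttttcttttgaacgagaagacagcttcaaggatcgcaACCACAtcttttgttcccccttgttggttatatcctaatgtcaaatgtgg
Cd274 held a RUNX match beginning at position -216 and a GC box at -54, and Pdcd1lg2 held a RUNX match at position 1, the first base of the annotated transcript. Of 33469 RefSeq rat start regions, 17.3% held the RUNX letters and 33.1% the GC box. Neither gene held the interferon-gamma element TTCNNNGAA, present in 8.87% of start regions, or the interferon regulatory element (IRF), present in 3.92%, in this window on either strand. Of the receptors searched, Havcr2 held the first of these elements at position 7. No start region was available for Lag3, so it was not searched. The motifs do not overlap in these windows, and a match is not a tested site.

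Within tumours, epithelial columns held a larger part of the leukocyte level for Cd274 than for the other 5 genes. In 34 tumours of 26 rats with columns of both classes, the epithelial Cd274 level was a median of 31.3% of the leukocyte level, from 0.225% to 146%. The corresponding medians were 1.01% for Pdcd1lg2, 1.60% for Lag3, 1.31% for Havcr2 and 5.99% for Cd244, and 0.225% for Pdcd1 over the 13 tumours whose leukocyte column was in batch 3. As markers of leukocytes in the epithelial columns, Ptprc was at a median of 0.842%, Cd3e at 0.506% and the macrophage gene Cd68 at 6.13%. The epithelial percentage of Cd274 was above that of Ptprc in 32 of 34 tumours and more than 10 times that of Ptprc in 26, against 1 of 34 for Pdcd1lg2, 3 for Lag3, 1 for Havcr2 and 18 for Cd244. The macrophage gene Cd68 was also above Ptprc in 33 of 34 tumours and more than 10 times above in 19, whereas Cd3e was above in 10 and more than 10 times in 0. Because the classes were cut from Ptprc and Epcam of the same columns, these are descriptions with no test. In RefSeq, Cd274 overlaps the protein-coding gene Plgrkt, and the part of Plgrkt reads in the Cd274 counts was not tested.

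**Figure D1:**
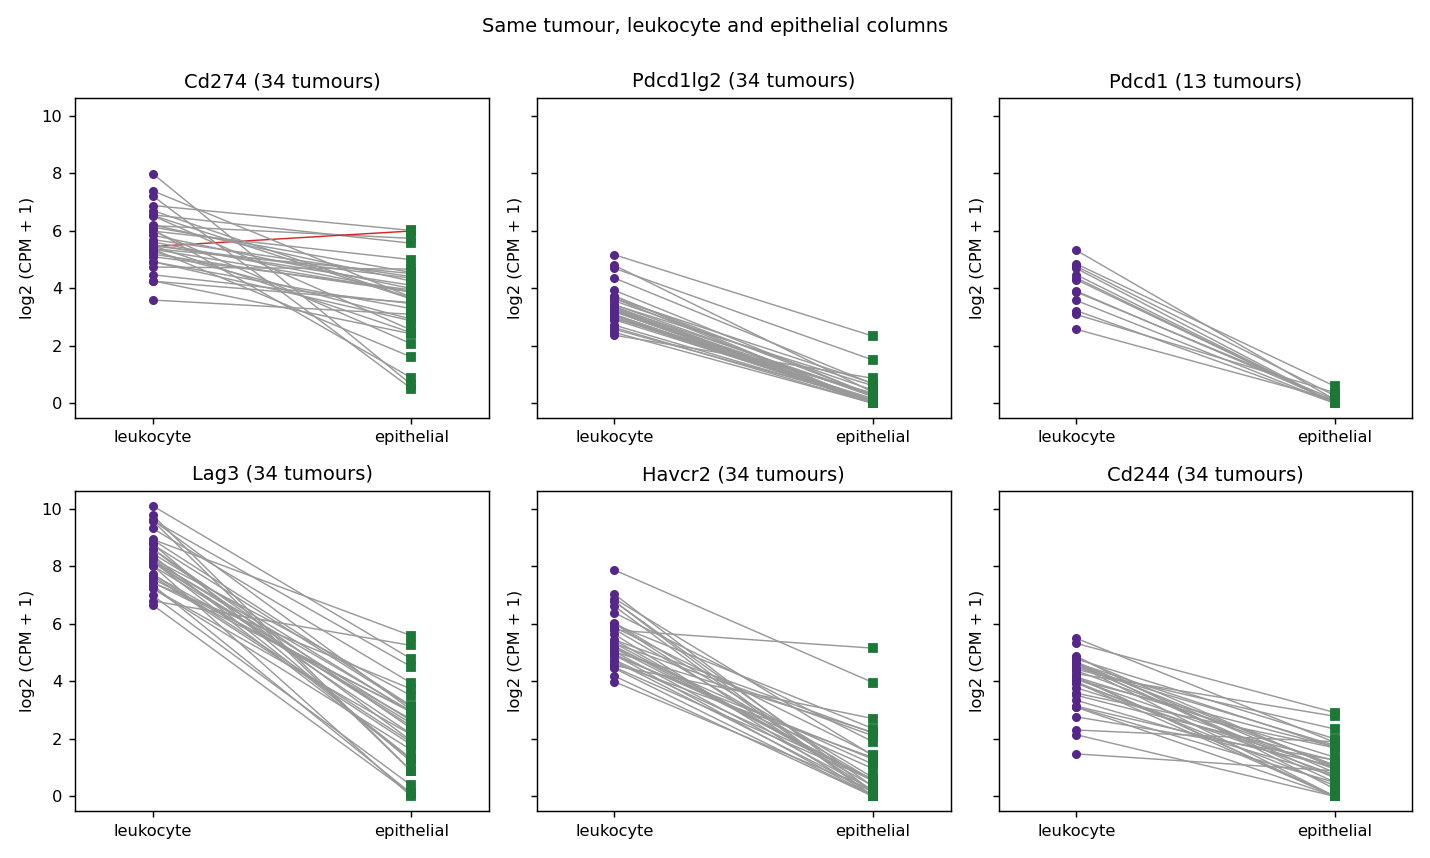
Level of each gene in the leukocyte column (circles) and the mean of the epithelial columns (squares) of the same tumour, as log2 of CPM + 1, joined by a line per tumour. The median slope is shallowest for Cd274, though its single lines vary widely. The red line is tumour P17T3, the 1 tumour where the epithelial value of Cd274 was the higher.

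The leukocyte value of Cd274 was above every epithelial value of the same tumour in 33 of 34 tumours. The exception was tumour P17T3 of a LY rat, at 42.9 CPM in the leukocyte column and 62.6 CPM in the epithelial column. Untreated tumour C9T1 lay at the other end, at 253 CPM in the leukocyte column and 0.570 CPM in the epithelial column, and C10T2 was similar at 147 and 0.425 CPM. For each of the other 5 genes the leukocyte value was above every epithelial value in all tumours compared. The median epithelial percentage of Cd274 was 25.1% in 8 PDL1 tumours, 43.2% in 5 LY tumours, 24.8% in 5 PDL1+LY tumours, 31.2% in 8 untreated tumours and 35.1% in 8 vehicle tumours, with ranges that overlapped.

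Epithelial Cd274 also differed between columns of 1 tumour. The labels give 16 of the 17 tumours with 2 epithelial columns a DN and an Ep sample, so a pair sets differently sorted fractions side by side and does not show variation within 1 cell population. In these 17 tumours of 14 rats, the column with more Cd274 held 1.18 to 9.32 times the level of the other, with a median of 2.57, and more than 2 times in 12 tumours. PDL1 tumour P29T2 had 26.9 CPM in the higher column and 2.89 CPM in the lower, and vehicle tumour P7T1 had 20.9 and 2.25 CPM. The column with more Cd274 also had more Epcam in 15 of 17 tumours and more Krt8 in 8, but more of the fibroblast collagen gene Col1a1 in 2, of the smooth muscle actin gene Acta2 in 2 and of the basal keratin gene Krt5 in 4. It had more Ptprc in 5 of 17. The part of these markers in the difference was not tested.

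**Figure D2:**
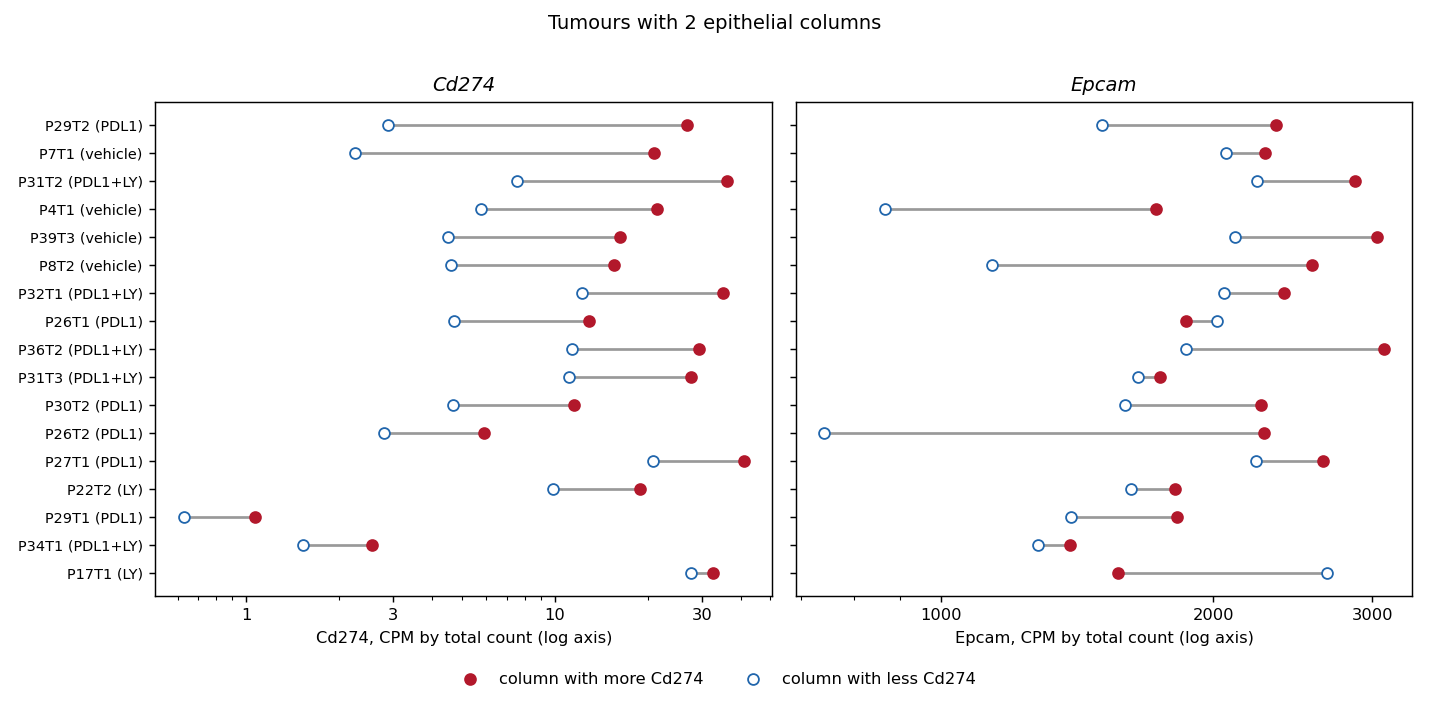
Cd274 (left) and Epcam (right) in both epithelial columns of 17 tumours, 16 of them with a DN and an Ep sample in the labels, in CPM on log axes, with the treatment of the rat in brackets. Filled points are the column with more Cd274 and open points the other, and the filled point lies to the right for Epcam in 15 of 17 tumours.

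For comparisons between treatments, the columns of 1 rat, class and batch were summed, since treatment was given to the rat. The leukocyte comparison held 5 PDL1, 5 LY, 6 PDL1+LY and 8 vehicle rats, and the epithelial one 7, 4, 6 and 7 rats. Batch is the batch number in the deposited sample table, and it entered every fit as a term. A rat entered with 1 batch, which left 7 of 35 leukocyte columns out of the sums, 3 from PDL1, 2 from LY and 2 from vehicle rats. The epithelial sums held 41 of 51 columns. These were 11 of 16 for PDL1, 6 of 8 for LY, 12 of 13 for PDL1+LY and 12 of 14 for vehicle rats. In edgeR's quasi-likelihood test with Benjamini-Hochberg adjustment over 11832 genes, no gene passed 0.05 in leukocyte columns for PDL1, LY or PDL1+LY over vehicle (0% in each). At an unadjusted p under 0.05 there were 1083 genes (9.15%) for PDL1, 2107 (17.8%) for LY and 1393 (11.8%) for PDL1+LY, and DESeq2 called 63, 441 and 87 genes. All 6 measured checkpoint genes were tested there, and 2, 3 and 1 of them had an unadjusted p under 0.05. Their median log2 fold change was 0.54 for PDL1, 0.63 for LY and 0.24 for PDL1+LY, against 0.01, 0.01 and 0.03 over all genes tested. The 3 comparisons share the vehicle rats.

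**Figure D3:**
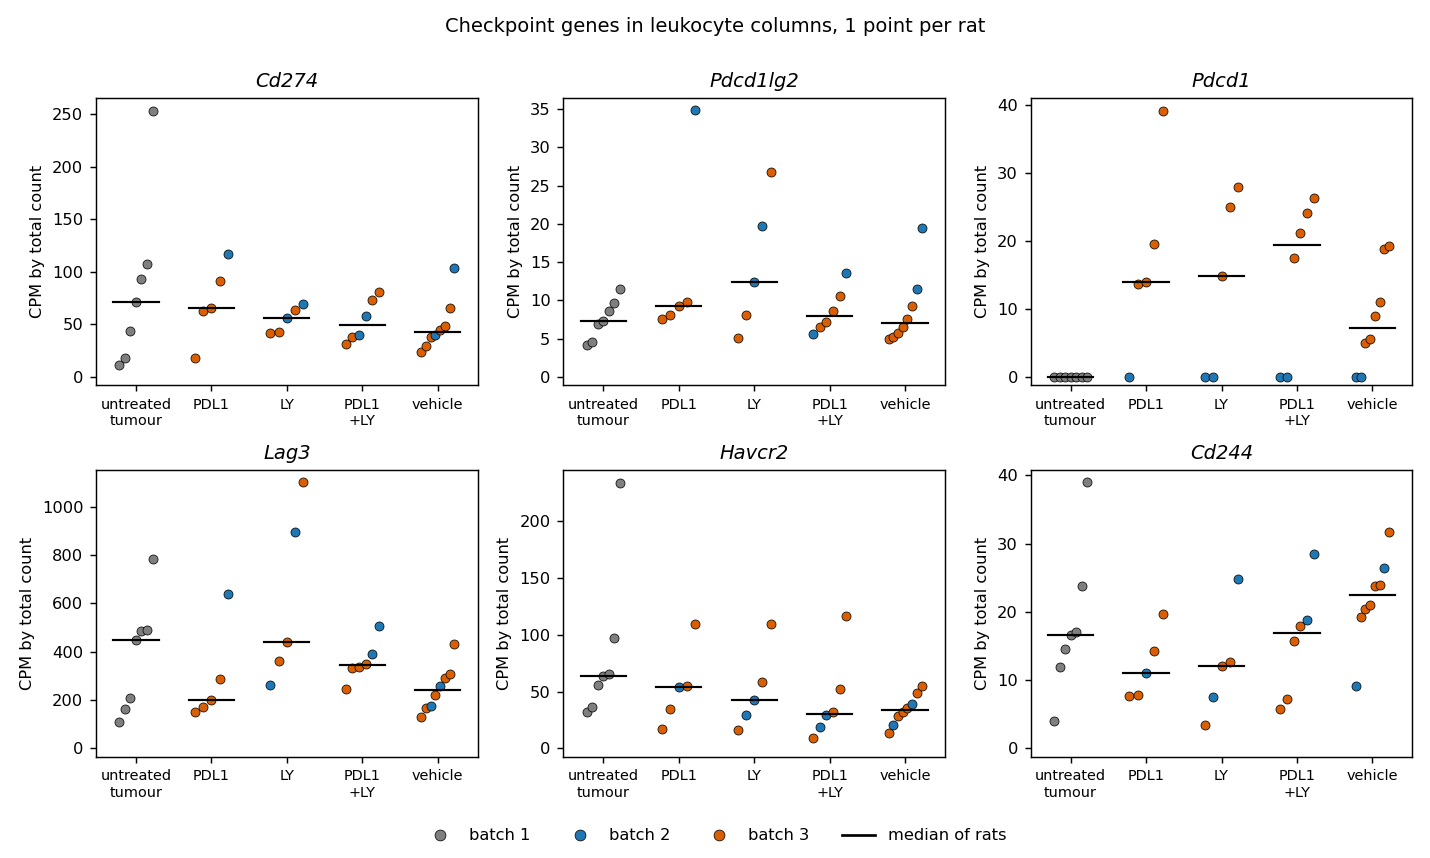
CPM of each gene in leukocyte columns, 1 point per rat (columns of the rat's batch summed), coloured by batch, with the median as a bar and vehicle rats at the right. Pdcd1 lies at 0 in batches 1 and 2, and Cd244 lies higher in most vehicle rats than in most treated rats.

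Leukocyte Cd274 overlapped between all treatments. The 5 PDL1 rats had 18.2, 62.6, 65.2, 91.1 and 117 CPM, the 5 LY rats 41.4, 42.9, 56.1, 63.2 and 69.1 CPM, the 6 PDL1+LY rats 31.3 to 80.3 CPM with a median of 49.03 CPM, and the 8 vehicle rats 23.5 to 103.2 CPM with a median of 42.4 CPM. Of these rat values, the highest and the lowest were both in PDL1 rats. Columns outside the sums were at 167 CPM (P24T3), 29.3 CPM (P26T1) and 56.6 CPM (P29T2) in PDL1 rats. In vehicle rats they were at 5.57 CPM (P6T2), below every rat value, and 21.2 CPM (P8T2). In LY rats they were at 25.7 CPM (P19T1) and 33.3 CPM (P22T2). The log2 fold change over vehicle was 0.51 ± 0.37 (SE) for PDL1, 0.06 ± 0.38 for LY and 0.14 ± 0.36 for PDL1+LY (edgeR adjusted p = 0.676, 0.951 and 0.904). Without rat P24 the PDL1 value was 0.29. The antibody binds the product of Cd274, and the counts concern its RNA only.

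Pdcd1lg2 was at 7.50 to 9.74 CPM in 4 PDL1 rats and at 34.9 CPM in the fifth, P28, whose leukocyte column was in batch 2. Of the PDL1 columns outside the sums, also in batch 2, tumour P24T3 had 24.9 CPM, P29T2 10.8 CPM and P26T1 9.10 CPM. The LY rats had 5.09, 8.11, 12.3, 19.7 and 26.8 CPM, the PDL1+LY rats 5.58 to 13.6 CPM with a median of 7.92 CPM, and the vehicle rats 4.95 to 19.5 CPM with a median of 7.03 CPM. The groups overlapped, with log2 fold changes of 0.58 ± 0.38, 0.68 ± 0.38 and 0.02 ± 0.37 (edgeR adjusted p = 0.644, 0.354 and 0.988). Without rat P28 the PDL1 value was 0.14, and without rat P17 the LY value was -0.04.

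Pdcd1 could be compared in batch 3 alone. Its row held 1 count in the 25 leukocyte columns of batches 1 and 2, which together had 320560925 counts, whereas all 19 leukocyte columns of batch 3 had counts. Other T cell genes were measured in all batches: the median of Cd3e was 876 CPM in batches 1 and 2 and 793 CPM in batch 3, and that of Lag3 293 and 292 CPM. Of 8863 genes with a mean of at least 5 CPM in batch 3, 35 (0.395%) had at most 1 count in batches 1 and 2, and the reverse held for 0 of 8835 genes. Pdcd1 is therefore only listed at 0 in batches 1 and 2, and untreated tumours, whose leukocyte columns were all in batch 1, give no level of it.

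In batch 3, Pdcd1 was at 13.65, 13.97, 19.6 and 38.99 CPM in PDL1 rats, at 14.8, 24.9 and 27.9 CPM in LY rats, and at 17.5, 21.2, 24.1 and 26.2 CPM in PDL1+LY rats. The 6 vehicle rats had 4.95 to 19.2 CPM with a median of 9.96 CPM. Every treated rat was above 4 of the 6 vehicle rats, and the vehicle rats P39 and P13 at 18.7 and 19.2 CPM lay within the treated range. The log2 fold change over vehicle was 0.94 ± 0.42 for PDL1, 1.01 ± 0.45 for LY and 1.07 ± 0.42 for PDL1+LY, with edgeR adjusted p of 0.539, 0.258 and 0.349, and 0.95, 1.02 and 1.08 with batch 3 alone. Leaving out 1 rat at a time gave 0.40 (without P24) to 1.17 for PDL1, 0.79 to 1.26 for LY and 0.84 to 1.29 for PDL1+LY. None passed the threshold. Set against T cell RNA, Pdcd1 had 17.9 to 56.7 counts per 1000 counts of Cd3e in PDL1 rats (median 19.1), 14.9 to 27.8 in LY rats (19.8), 12.7 to 43.02 in PDL1+LY rats (30.2) and 9.61 to 24.2 in vehicle rats (15.3), and all groups overlapped.

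Lag3 had the smallest p of the 6 genes in the LY comparison. The LY rats had 261, 361, 440, 895 and 1102 CPM, the PDL1 rats 150, 171, 202, 288 and 638 CPM, the PDL1+LY rats 244 to 506 CPM with a median of 344 CPM, and the vehicle rats 129 to 433 CPM with a median of 240 CPM. The LY rats P16 and P17 were above all others, LY rat P22 at 440 CPM was just above the highest vehicle rat, and the other 2 LY rats lay within the vehicle range. The log2 fold change was 1.23 ± 0.35 for LY (edgeR adjusted p = 0.117, 0.0343 to 0.314 over its alternatives), 0.14 ± 0.36 for PDL1 (adjusted p = 0.926) and 0.46 ± 0.34 for PDL1+LY (adjusted p = 0.592). DESeq2 put the LY value past the threshold, at 1.21 with an adjusted p of 0.0343, and edgeR without rat P17 gave 0.71. The PDL1 value turned to -0.36 in batch 3 alone and to -0.35 without rat P28, but was 0.90 by limma voom on all columns, which include PDL1 tumour P24T3 at 780 CPM and vehicle tumour P6T2 at 3.74 CPM. By limma voom the PDL1+LY value was 1.11.

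The same LY rats were high in other lymphocyte genes. Genes of natural killer and cytotoxic cells (Nkg7, Prf1, Gzmb, Klrd1, Ncr1, Klrb1a) summed to 1760 CPM in P17T3 and 884 CPM in P16T1, while their median was 185.5 CPM over the 5 LY rats and 233 CPM over the 8 vehicle rats, which ranged from 134 to 639 CPM. Per 1000 counts of Cd3e, Lag3 had 274 to 784 counts in LY rats (median 491) and 163 to 596 in vehicle rats (median 308). The part of these cells in the Lag3 values was not tested.

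Havcr2 was at 17.2, 34.5, 54.1, 55.2 and 108.9 CPM in PDL1 rats, at 16.6, 29.6, 42.5, 58.1 and 109.3 CPM in LY rats, at 9.25 to 117 CPM with a median of 30.6 CPM in PDL1+LY rats, and at 13.5 to 55.1 CPM with a median of 33.4 CPM in vehicle rats. The groups overlapped throughout, and the highest rat of each treated group was above all vehicle rats. Log2 fold changes were 0.62 ± 0.55, 0.59 ± 0.55 and 0.35 ± 0.52 (edgeR adjusted p = 0.733, 0.598 and 0.822). They were 0.19 for PDL1 without rat P24, 0.16 for LY without rat P22 and -0.40 for PDL1+LY without rat P33, and 0.14, 0.06 and -0.48 by limma voom on all columns.

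Cd244 was the 1 gene of the 6 whose fitted value was below 0 in all 3 leukocyte comparisons. The PDL1 rats had 7.66, 7.80, 11.05, 14.3 and 19.7 CPM, the LY rats 3.42, 7.58, 12.02, 12.7 and 24.8 CPM, the PDL1+LY rats 5.80 to 28.5 CPM with a median of 16.8 CPM, and the vehicle rats 9.15 to 31.8 CPM with a median of 22.4 CPM. Of the 8 vehicle rats, P7 at 9.15 CPM lay low among the treated rats. Columns outside the sums were at 37.2 CPM (P6T2) and 44.3 CPM (P8T2) in vehicle rats. In LY rats they were at 10.4 CPM (P19T1) and 27.5 CPM (P22T2). In PDL1 rats they were at 15.7 CPM (P24T3), 21.4 CPM (P26T1) and 18.3 CPM (P29T2). Log2 fold changes were -0.89 ± 0.36 for PDL1, -1.0 ± 0.37 for LY and -0.65 ± 0.34 for PDL1+LY (edgeR adjusted p = 0.504, 0.181 and 0.448), so none passed. Leaving out 1 rat at a time gave -1.14 to -0.77, -1.29 to -0.79 and -0.83 to -0.50 in the same order. RefSeq lists a near-identical copy, Cd244l1, and reads shared with it cannot be told apart in these counts.

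**Figure D4:**
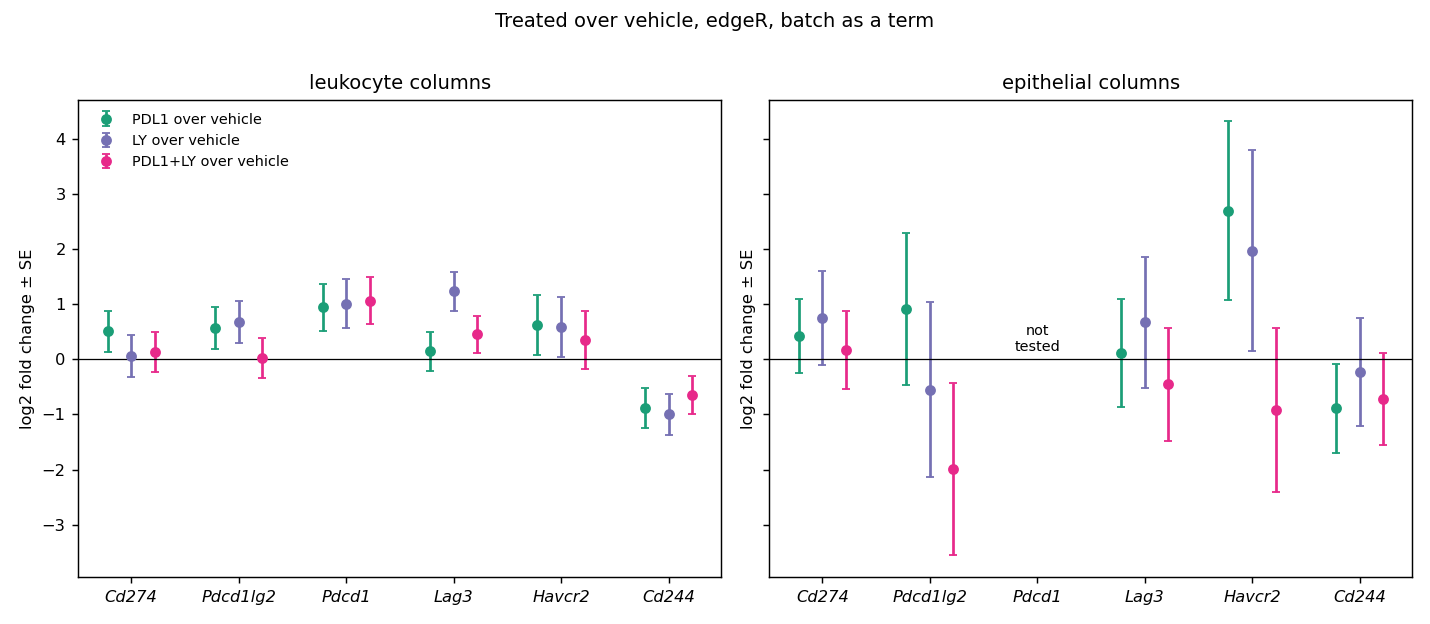
Log2 fold change over vehicle with its SE from edgeR for each gene and treatment, leukocyte columns at the left and epithelial columns at the right. In leukocyte columns Pdcd1 lies near 1 and Cd244 between -0.65 and -1.0 in all 3 treatments, and the errors are wider in epithelial columns.

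Summed macrophage genes also differed in level between the same groups. Cd68, Csf1r, C1qa, C1qb, Mrc1, Cd163 and Adgre1 summed to a median of 428 CPM in PDL1 rats (38.4 to 1166), 394 CPM in LY rats (184 to 927), 436 CPM in PDL1+LY rats (182 to 1614) and 1684 CPM in vehicle rats (177 to 4794). All 7 had fold changes below 0 in each comparison, with medians of -2.14, -2.17 and -1.955, and 0 of 7 passed the adjusted threshold. At an unadjusted edgeR p under 0.05 there were 6, 4 and 3 of 7, against 9.15%, 17.8% and 11.8% of all genes. T cell genes summed to medians of 4042, 4836, 4741 and 3956 CPM in the same order. Over the 19 leukocyte columns of batch 3, Cd244 had a median Spearman rho of 0.456 with the 7 macrophage genes and Pdcd1 one of -0.635, and the macrophage part in either gene's difference was not tested. The columns with the most macrophage RNA were all from vehicle rats, so these rhos hold the treatment difference too.

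**Figure D5:**
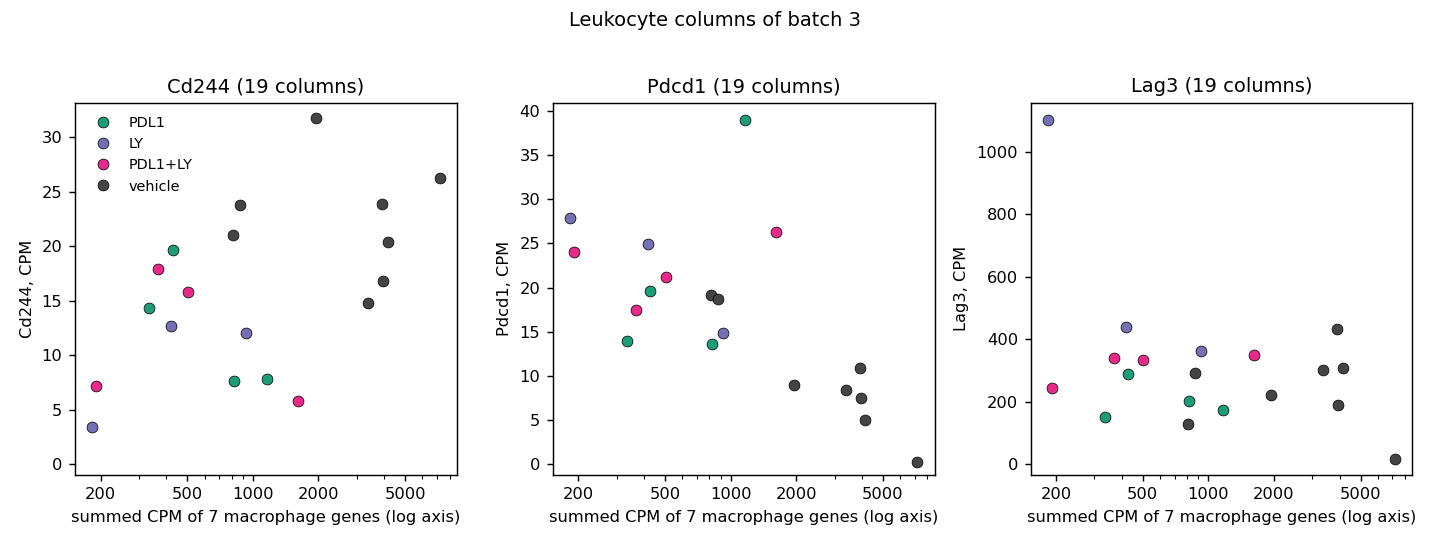
Cd244, Pdcd1 and Lag3 (CPM) against the summed CPM of 7 macrophage genes (log axis) in 19 leukocyte columns of batch 3, coloured by treatment. The 5 columns with the largest macrophage sums are all from vehicle rats, and the lowest Pdcd1 and Lag3 values, 0.230 and 15.7 CPM, belong to vehicle tumour P5T3.

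In epithelial columns, no gene passed in any comparison (0% of 13369 genes in each). At an unadjusted p under 0.05 there were 548 genes (4.1%) for PDL1, 751 (5.62%) for LY and 595 (4.45%) for PDL1+LY, and DESeq2 called 21, 146 and 4 genes. Of the 6 measured checkpoint genes 5 passed the filter on low counts and Pdcd1 did not, and 0 of the 5 had an unadjusted p under 0.05 in any comparison. Epithelial Cd274 was at 0.803 to 63.5 CPM with a median of 4.83 CPM in 7 PDL1 rats, at 13.5, 22.5, 24.4 and 30.2 CPM in 4 LY rats, at 2.28 to 19.7 CPM with a median of 18.6 CPM in 6 PDL1+LY rats and at 7.12 to 16.5 CPM with a median of 9.50 CPM in 7 vehicle rats. The LY rats overlapped the vehicle rats at their low end, and the PDL1 rats lay below, within and above the vehicle range. PDL1 columns of batch 2 outside the sums were at 11.9 CPM (P24T3), 4.72 and 12.9 CPM (P26T1) and 2.89 and 26.9 CPM (P29T2). Log2 fold changes were 0.42 ± 0.67, 0.75 ± 0.85 and 0.17 ± 0.70 (edgeR adjusted p = 0.978, 0.983 and 1.00). All 4 LY rats entered with batch 2, where the 4 vehicle rats had 7.81 to 11.5 CPM, below each LY rat. The mix of fractions differed there, since all 4 vehicle rats had 2 columns each and 2 of the 4 LY rats had 1, with an Ep and no DN sample in the labels. Single columns of batch 2 in these sums overlapped, at 9.86 to 32.7 CPM in LY rats and 2.25 to 21.5 CPM in vehicle rats. Batch 3 columns outside the sums were at 62.6 CPM (P17T3) and 3.19 CPM (P22T1) in LY rats. In vehicle rats they were at 6.30 CPM (P39T1) and 13.6 CPM (P8T1). Over all 24 rats of the epithelial comparison, the labels give 13 both DN and Ep samples of the tumours used, 3 an Ep without a DN sample and 8 a DN without an Ep sample, and the part of this mix in the epithelial values was not tested.

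The other genes were low in epithelial columns. Lag3 averaged 4.69 ± 5.99 CPM in PDL1 rats, 5.70 ± 6.81 CPM in LY rats, 3.48 ± 2.76 CPM in PDL1+LY rats and 4.67 ± 3.42 CPM in vehicle rats (SD, n = 7, 4, 6 and 7). Cd244 averaged 0.906 ± 0.697, 1.41 ± 1.37, 1.10 ± 0.529 and 1.81 ± 1.49 CPM in the same groups. Havcr2 was at 34.6 CPM in PDL1 rat P28 and at 0 to 3.05 CPM in the other 6 PDL1 rats, against 0 to 1.97 CPM in vehicle rats, and its log2 fold change for PDL1 was 2.69 ± 1.62 with P28 and 0.32 without it. The epithelial column of P28 also had the most Ptprc of its class, 124 CPM.

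Untreated tumours were in batch 1 for leukocytes and were compared with no other group, since batch and treatment cannot be told apart there. Their 7 rats had 11.05 to 253 CPM of Cd274 with a median of 71.5 CPM, 110 to 784 CPM of Lag3 with a median of 447 CPM and 31.6 to 234 CPM of Havcr2 with a median of 63.6 CPM. Tumours of 1 rat could differ as much as rats did. Across the 3 tumours of untreated rat C10, the highest value was 8.78 times the lowest for Lag3 and 12.8 times for Cd244, but 1.71 times for Cd274. The corresponding ratios were 6.08 for Lag3, 2.43 for Cd244 and 2.10 for Cd274 in the 3 tumours of PDL1+LY rat P31, and 19.2, 1.78 and 1.80 in those of vehicle rat P5, where the low Lag3 value was that of P5T3.

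The wider list of checkpoint genes gave no call either. Of 27 further ligands and receptors of costimulation and coinhibition, 25 had a row and 24 were tested, and 0 passed in either direction in any of the 6 comparisons. Their median log2 fold change in leukocyte columns was 0.30 for PDL1, 0.27 for LY and 0.33 for PDL1+LY, against 0.01, 0.01 and 0.03 over all genes. An unadjusted p under 0.05 was held by 2, 7 and 4 of 24, where the share over all genes was 9.15%, 17.8% and 11.8%. The 4 with the highest mean CPM in leukocyte columns were Lgals3, whose galectin product binds LAG-3 among other proteins, the costimulatory receptor Icos, Cd48, the ligand of 2B4, and Tnfrsf14, the receptor HVEM that binds BTLA. Icos had log2 fold changes of 0.50 ± 0.30, 0.64 ± 0.30 and 0.46 ± 0.28 for PDL1, LY and PDL1+LY over vehicle, Tnfrsf14 0.30 ± 0.27, 0.34 ± 0.27 and 0.37 ± 0.25, Lgals3 -0.68 ± 0.66, -1.04 ± 0.66 and 0.26 ± 0.60, and Cd48 -0.03 ± 0.22, -0.00 ± 0.23 and 0.22 ± 0.21. Of the 25 genes, 17 had the higher median in leukocyte columns and 7 in epithelial columns. Among those 7, named here after their values were seen, were Vtcn1, which encodes the ligand B7-H4, at medians of 0.914 CPM in leukocyte columns and 95.8 CPM in epithelial columns, and Nectin2, a ligand of TIGIT, at 3.20 and 249.8 CPM.

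No gene of the interferon-gamma response passed. Of 12 such genes, 12 were tested in leukocyte columns and 11 in epithelial columns, with 0 calls in either direction. Their median log2 fold change in leukocyte columns was 0.08 for PDL1, 0.25 for LY and -0.00 for PDL1+LY. Over all genes it was 0.01, 0.01 and 0.03. In epithelial columns the medians were -0.11, -0.13 and -0.63, against -0.01, -0.01 and -0.055 over all genes. There 1 of 11 lay above 0 for PDL1+LY, where 43.9% of all genes did. An unadjusted edgeR p under 0.05 was held by 1, 1 and 2 of 12 in leukocyte columns (9.15%, 17.8% and 11.8% of all genes). In epithelial columns it was held by 0, 0 and 2 of 11 (4.1%, 5.62% and 4.45% of all genes). Over the 19 leukocyte columns of batch 3, the median rho of Cd274 with the 12 genes was -0.05, from -0.42 to 0.60.

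The genes most like each checkpoint gene were taken over the same 19 columns among 12124 genes, by Spearman rho of log2 CPM. They are the highest of many rhos over few columns that differ in treatment and cell makeup, so the values are descriptions with no test. Cd274 was most like Nr4a3 (0.856), Sts (0.840) and Mxd1 (0.828), of which Nr4a3 encodes an orphan nuclear receptor induced by activation. Pdcd1lg2 was most like Btg1 (0.844), the transcriptional repressor Bcl6 (0.814) and Aff4 (0.800). Pdcd1 was most like Gucy1a1 (0.923), the transcription factor Stat5a (0.888) and Phgdh (0.875). Lag3 had weaker matches, Gfra3 (0.749), Pitpnm2 (0.719) and Cck (0.695). Havcr2 was most like Basp1 (0.907), Cisd2 (0.898) and Fgf18 (0.865), and Cd244 most like P2ry6 (0.928), a nucleotide receptor, Glod4 (0.909) and St6galnac6 (0.907). Cd244 had a negative rho with each of the other 5 genes, from -0.30 with Lag3 to -0.63 with Pdcd1lg2, whereas Pdcd1 had positive ones with the other 4, 0.32 with Lag3, 0.38 with Havcr2, 0.44 with Cd274 and 0.46 with Pdcd1lg2.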

How the data were processed

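RNA of sorted fractions was sequenced from SMARTer libraries of under 10 ng RNA, per the labels' protocols. The deposited values are whole-number counts per gene symbol, and per the submitters' processing notes FastQC, STAR and the build rn6 were used. For the counting tool and strand, the entry is: not given in the sources used here. In RefSeq Cd274 overlaps Plgrkt, Havcr2 another protein-coding gene and Pdcd1lg2 3 long noncoding RNA genes, so their counts are uncertain. Of 108 columns, 1 was not used. Groups came from the labels by rat and tumour name, and batch from the deposited sample table. Labels and columns give opposite numbers of samples for the tumours of rat P22.

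Counts of a rat's columns in 1 class and batch were summed, and a rat in several batches entered with the batch holding most of its columns, or the later batch in a tie. They were tested with edgeR 4.0.16 (TMM, filterByExpr, quasi-likelihood F test) in R 4.3.3, all 4 arms in 1 fit with batch, Benjamini-Hochberg over all genes. The SE is derived from the F statistic. DESeq2 1.42.0 and limma 3.58.1 were alternatives, and the test was tested on simulated data. Levels are CPM by column total, and log2 differences of levels add 1 CPM.

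The genes, lists and rules were chosen with earlier results of these data known. The text names the 7 checkpoint genes, of 27 further ones those that pass or have the 4 highest levels, passing interferon-gamma genes, and the 3 genes most like each member. Vtcn1 and Nectin2 were named outside this rule, after their values were seen. Ratios to Cd3e were added after seeing the data. The most alike pair of columns differed beyond sampling noise. The labels give rats as separate animals. The labels mention no molecular identifiers, and floors of 3 counts cover counting error only.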

Additional observations from a re-analysis of the deposited data

Results flagged for a closer look

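Rat values were checked for a highest or lowest value far from the rest of its group, in 53 groups of 4 to 8 rats. Chance flags about 1 in 20 groups if values are normally distributed, which CPM with several rats at or near 0 are not. The rate by chance is thus not known here, and 10 values were set apart, each the highest of its group. Rat P28 (PDL1) accounted for 4 of them: in leukocyte columns Pdcd1lg2 was at 34.9 CPM against 7.50 to 9.74 CPM in the other 4 rats and Lag3 at 638 CPM against 150 to 288 CPM, and in epithelial columns Pdcd1lg2 was at 4.04 CPM against 0 to 0.177 CPM and Havcr2 at 34.6 CPM against 0 to 3.05 CPM in the other 6 rats. P28 was the only PDL1 rat of the leukocyte comparison in batch 2. Over all PDL1 leukocyte columns it did not stand alone, since tumour P24T3, a batch 2 column outside the rat sums, had 780 CPM of Lag3 and 24.9 CPM of Pdcd1lg2. Among untreated rats, C9 stood apart for leukocyte Cd274 (tumour C9T1), at 253 CPM against 11.05 to 107.5 CPM. It also stood apart for epithelial Cd244 (tumour C9T2), at 20.7 CPM against 0 to 2.74 CPM. The epithelial column of C9T2 was the only one of that group in batch 3. That of C9T1, in batch 1 and outside the sums, had 6.55 CPM of Cd244. Untreated rat C7 stood apart for leukocyte Havcr2, at 234 CPM against 31.6 to 96.9 CPM. Vehicle rat P4, in batch 2, stood apart for leukocyte Pdcd1lg2, at 19.5 CPM against 4.95 to 11.5 CPM. In PDL1+LY epithelial columns the values set apart were the highest of groups near 0, Pdcd1lg2 at 0.192 CPM (9 counts) in rat P31 and Havcr2 at 1.68 CPM (25 counts) in rat P33. The part of batch or cell makeup in these values was not tested.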

How the results depend on the processing

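No gene passed in the 6 edgeR comparisons under RLE scaling, no filter, no batch term, 1 batch alone, only the 2 groups compared or stricter classes (Ptprc at 600 CPM, or Epcam at 600 CPM and Ptprc below 50 CPM). DESeq2 called 63 (PDL1), 441 (LY) and 87 (PDL1+LY) genes in leukocyte columns and 21, 146 and 4 in epithelial columns, and limma voom on single columns with rat as a random block called 19 and 291 leukocyte genes for PDL1 and PDL1+LY and 0 elsewhere. Leaving out each rat gave 0 to 311 genes for LY in leukocyte columns, 311 without vehicle rat P7, and 0 in the other 5 comparisons. The cause was not tested. Of 683 refits of the 6 genes, 1 was called (Lag3 for LY by DESeq2, 1.21), and 40 changed direction, 26 of them without 1 rat. In leukocyte columns, Lag3 for PDL1 was -0.36 in batch 3 alone, Havcr2 for PDL1+LY -0.48 by limma voom, and Pdcd1lg2 for PDL1+LY -0.0065 under RLE, -0.0087 by DESeq2, -0.10 with no batch term, -0.066 with stricter classes and -0.0076 with only the 2 groups. In epithelial columns for PDL1, stricter classes gave Cd274 -0.60 and Lag3 -1.57 and limma voom -0.26 and -1.11, and for LY, Pdcd1lg2 was 0.54 with no batch term and 0.022 with only the 2 groups and Lag3 -0.28 by limma voom. Without 1 rat, leukocyte ranges that crossed 0 were -0.35 to 0.31 (Lag3, PDL1), -0.099 to 0.32 (Cd274, LY), -0.038 to 0.87 (Pdcd1lg2, LY), -0.15 to 0.34 (Cd274, PDL1+LY), -0.15 to 0.22 (Pdcd1lg2, PDL1+LY) and -0.40 to 0.55 (Havcr2, PDL1+LY). Epithelial ones were -0.51 to 0.66 (Cd274, PDL1), -1.74 to 1.45 (Pdcd1lg2, PDL1), -1.36 to 0.40 (Lag3, PDL1), -0.69 to 1.08 (Lag3, LY), -1.17 to 0.17 (Cd244, LY) and -0.17 to 0.40 (Cd274, PDL1+LY). The leukocyte minus epithelial difference moved by less than 1 SD for all 6 genes with stricter classes or TMM-scaled libraries. No paired analysis was possible because treatment was given to the whole rat, so no rat is in 2 arms, and numbers were given in accession order. The comparison of untreated tumours with NMU glands was not run, since no column could be tied to a gland. Depth limits epithelial Pdcd1, with at most 5 counts in a column, and epithelial Pdcd1lg2, with at most 40.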
